A study of Drosophila melanogaster with 3 samples.

Results

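The 8 Hox genes of Drosophila melanogaster and the genes of their 2 DNA-binding cofactors were examined for binding of the homeodomain protein slouch (slou) in embryos. The 10 genes were chosen by symbol, with no threshold on a measured value. They are lab, pb, Dfd, Scr and Antp of the Antennapedia complex, Ubx, abd-A and Abd-B of the bithorax complex, and the cofactor genes exd and hth, out of 13968 protein-coding genes. For each gene the summits of binding peaks were counted in a window made of the gene body and 1 kb upstream of it. The chromatin came from whole embryos of both sexes, aged 0 to 24 h, of a transgenic line that stably expresses slou with GFP at its C-terminus. The assay was ChIP-seq, sequencing of DNA recovered with an antibody, here one against GFP according to the description in the labels, although their antibody field names slou itself. There is 1 group with 3 biological replicates, so genes were compared within these libraries and no condition was compared with another. The labels do not give the insertion site of the transgene, the promoter that drives it or the state of the endogenous slou gene, and a whole embryo mixes all cell types over a full day of development.

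Hox genes encode homeodomain transcription factors that give body segments along the head-to-tail axis their identity. In the fly they lie in a pair of clusters, with gene order along the chromosome close to the order of the body regions in which they act. Their proteins gain DNA specificity by binding together with Extradenticle (exd), a TALE-class homeodomain protein, and Homothorax (hth), a further TALE protein that brings Extradenticle into the nucleus. Slouch, also known as S59 or NK1, is a homeodomain protein of the NK class that specifies the identity of certain muscles and neurons.

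The data are lists of peaks, which are intervals with more immunoprecipitated reads than a control. The authors deposited a list called on the 3 replicates pooled, with 30000 peaks, and a list of equal length for each replicate, all of which hold background beside signal. They also deposited a list of 2743 reproducible peaks, here the optimal list, whose scores ran from 92.0 to 1515. Each peak has the authors' own score, on a scale no source used here states, and rank 1 is the highest score within a list. The optimal peaks are the 2743 highest-ranked of the pooled list, so a pooled rank above 2743 puts a peak outside the optimal list. The 2743 highest-ranked peaks of a replicate list are called its top list. The files used hold no read counts, so sequencing depth is unknown. The slou gene itself held no optimal summit, and its best pooled-list rank was 15376.

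Optimal peaks were found in 3 of the 10 genes: 3 in hth, 2 in Antp and 1 in Ubx, all in introns. Another 2 lay inside the complexes but outside the Hox gene windows. The first of these (ANT-C peak 1) was 219 bp upstream of bcd, which encodes the maternal anterior determinant Bicoid, and the other (BX-C peak 1) was in an intron of lncRNA:bxd, a noncoding RNA gene in the regulatory region upstream of Ubx. The 101 bases centred on each summit are shown because these 8 peaks carry the results that follow. They are read 5′ to 3′ on the plus strand of dm6 from the RefSeq Release 6 genome. Capitals mark matches, on either strand, to TAATTA or TAATTG, which are homeodomain core sites, or to TGATNNAT, the composite site of Extradenticle with a Hox protein. Matches of TAATTG and TGATNNAT can share letters.
hth peak 1: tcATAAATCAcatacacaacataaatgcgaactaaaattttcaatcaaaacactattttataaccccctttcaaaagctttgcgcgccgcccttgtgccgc
hth peak 2: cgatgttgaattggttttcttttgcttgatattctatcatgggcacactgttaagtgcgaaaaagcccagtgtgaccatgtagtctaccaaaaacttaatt
hth peak 3: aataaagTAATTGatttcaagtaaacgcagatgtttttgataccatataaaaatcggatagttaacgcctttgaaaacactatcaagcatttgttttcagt
Antp peak 1: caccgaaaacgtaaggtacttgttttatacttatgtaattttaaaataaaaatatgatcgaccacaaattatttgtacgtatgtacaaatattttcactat
Antp peak 2: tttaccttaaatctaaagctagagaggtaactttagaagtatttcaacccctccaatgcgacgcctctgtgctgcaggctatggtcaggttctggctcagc
ANT-C peak 1: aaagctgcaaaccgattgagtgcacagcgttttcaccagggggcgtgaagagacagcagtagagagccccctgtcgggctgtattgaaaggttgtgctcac
Ubx peak 1: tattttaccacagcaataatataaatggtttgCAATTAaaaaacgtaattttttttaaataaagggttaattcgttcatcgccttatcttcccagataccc
BX-C peak 1: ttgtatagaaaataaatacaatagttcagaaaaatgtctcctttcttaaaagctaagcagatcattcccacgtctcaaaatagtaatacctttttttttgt

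These windows are chr3R:10597746-10597846, chr3R:10564381-10564481 and chr3R:10537323-10537423 for hth peaks 1, 2 and 3, and chr3R:6912541-6912641 and chr3R:6914557-6914657 for Antp peaks 1 and 2. ANT-C peak 1 is shown at chr3R:6759635-6759735, Ubx peak 1 at chr3R:16704437-16704537 and BX-C peak 1 at chr3R:16769576-16769676. TGATNNAT occurred at hth peak 1, and TAATTG at hth peak 3 and Ubx peak 1. No match to any of these 3 motifs lay in the printed windows of the other 5 peaks, and TAATTA was in none of the 8. Over all 2743 optimal summits, 10.8% had TAATTA, 11.3% TAATTG and 8.02% TGATNNAT within 50 bp. A match describes the letters only and says nothing of which protein was bound.

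The count of 3 in 10 genes stands beside 2748 of all 13968 protein-coding genes with an optimal summit in the same window (19.7%). Most of the 10 genes are long, though exd is short (window of 5042 bp), and long windows collect more summits. Among the 4137 genes whose windows were as long as the shortest to the longest of the 10, 32.4% held an optimal summit, and among the 8832 genes with any pooled-list summit 31.1% did. That range includes many genes with windows as short as that of exd. Among genes within 20% of the window length of each of the 10, the share ran from 23.8% for exd to 60.5% for Antp, with a mean of 40.9% over the 10 genes and 41.7% over the 8 Hox genes, of which 2 held an optimal summit. The count in the Hox and cofactor genes was thus above the share of all genes and below the mean share of genes of like length, and with 10 genes neither difference was tested. In the top lists of replicates 1, 2 and 3, 2, 4 and 4 of the 10 genes held a summit, against 19.1%, 19.9% and 19.3% of all protein-coding genes. Antp and hth did in every replicate, Ubx in replicates 2 and 3, pb in replicate 2 and Abd-B in replicate 3. All 10 held at least 1 pooled-list summit. In all they held 126 pooled-list summits, of which 6 were optimal (4.76%), against 9.14% of all pooled-list peaks. The counts varied with the replicate left out: among optimal peaks matched in the top lists of both other replicates, 4 of the 6 summits were kept without replicate 1, 2 without replicate 2 and 3 without replicate 3, and Ubx kept its summit only without replicate 1. The same rule kept 73.0%, 69.1% and 67.3% of all optimal peaks, so part of the loss is built into the stricter list.

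**Figure D1:**
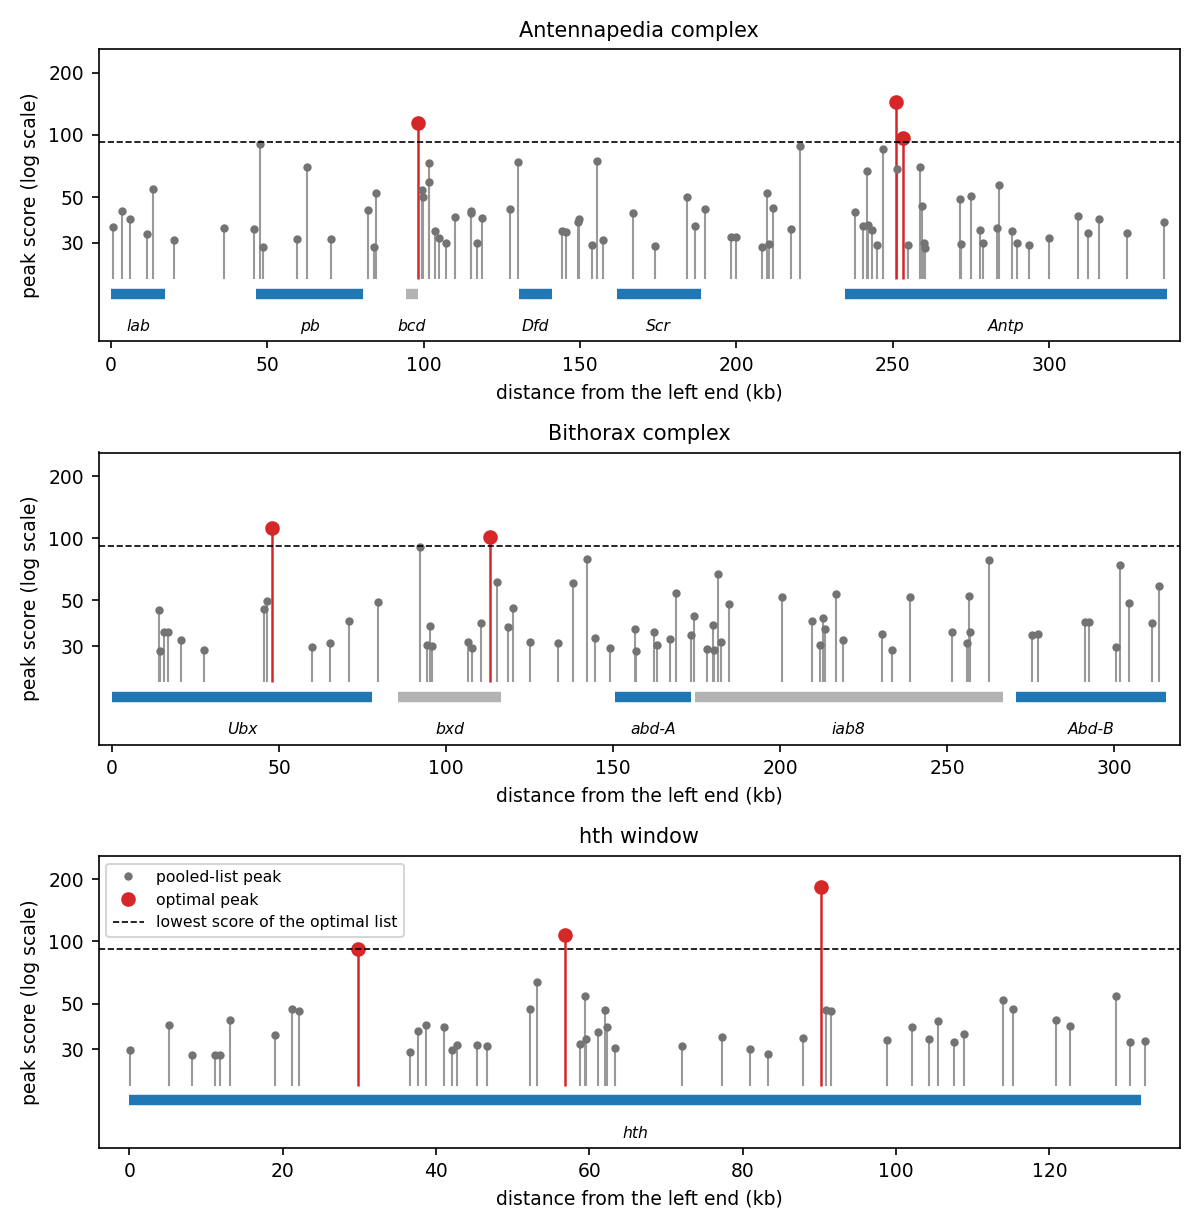
Peaks of the pooled list along the Antennapedia complex, the bithorax complex and the hth window, with distance from the left end in kb on the horizontal axis and the authors' peak score on a log scale on the vertical axis. Grey stems are pooled-list peaks, red stems are the optimal peaks, bars are gene bodies (grey for other named genes), and the dashed line is the lowest optimal score, 92.0. The 8 optimal peaks are few among many lower peaks, and 3 of them lie in hth.

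The cofactor gene hth (FBgn0001235, chr3R:10507561-10639568, minus strand) had the highest-ranked peak of the 10 genes. Its peak 1 (chr3R:10597601-10597990) ranked 816, 1170 and 509 in replicates 1, 2 and 3, and 734 in the pooled list, where its score was 184. It was in the top list of all 3 replicates, with a mean log10 rank of 2.90 ± 0.18 (SD, n = 3). The summit lay in an intron, 16480 bp downstream of the nearest hth transcription start site (TSS). Peak 2 (chr3R:10564236-10564625, score 108) ranked 5404, 1701 and 2137. Replicate 1 was the low one, outside its top list, while the other 2 had the peak inside theirs. Peak 3 (chr3R:10537178-10537567, score 92.2) ranked 3254, 6394 and 2850 and so missed the top list of every replicate. It entered the optimal list 11 places from its end. Peaks 2 and 3 lay 49845 and 76903 bp from the nearest hth TSS, and neighbouring summits of the 3 peaks were 33365 and 27058 bp apart. The hth window of 133 kb held 49 pooled-list summits, and 13 of these peaks were overlapped by a peak in all 3 replicate lists (26.5%, 95% Wilson interval 16.2 to 40.3), against 32.3% of all pooled-list peaks. Wilson intervals here cover counting error over peaks only.

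The other cofactor gene, exd (FBgn0000611, chrX:15992468-15996509, plus strand), encodes the partner that hth brings into the nucleus, and it stood at the other end of the range. No optimal summit fell in its window of 5042 bp, and it held 2 pooled-list summits. Its highest-ranked peak ranked 24087 in replicate 1, 4798 in replicate 2 and 23122 in replicate 3. Only replicate 2 placed it in the upper part of the list, and the replicate 3 peak was a different one, in the exd 3′ UTR. The best pooled-list peak lay upstream of the exd TSS, at -144 bp, and ranked 9056. The nearest optimal summit to any exd TSS was 97470 bp away, at rank 797. Of genes with windows within 20% of the exd length, 23.8% held an optimal summit, against 51.8% for hth.

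Antp, the Hox gene that specifies the second thoracic segment, had the highest-ranked peak of the complexes (FBgn0260642, chr3R:6896253-6999228, minus strand). Antp peak 1 (chr3R:6912396-6912785, score 144) ranked 1140, 1532 and 748 in replicates 1, 2 and 3, with a mean log10 rank of 3.04 ± 0.16 (SD, n = 3). All 3 replicates had it in their top lists. Antp peak 2 (chr3R:6914412-6914801, score 96.8) ranked 1602, 2674 and 3361, so replicate 3 fell outside its top list. In the pooled list it ranked 2521, the lowest of the 5 optimal peaks in the complexes. The summits were 2016 bp apart, in introns that belong to both Antp and the overlapping gene CG46458, and lay 20249 and 18233 bp downstream of the nearest Antp TSS. A/T content differed between them, at 75.2% within 50 bp of peak 1 and 53.5% within 50 bp of peak 2. Antp held 31 pooled-list summits in a window of 103976 bp, and 4 of these peaks had an overlapping peak in all 3 replicate lists. Among all pooled-list peaks, 32.3% had one. Among genes with windows within 20% of its length, 60.5% held an optimal summit.

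Ubx, which specifies the third thoracic segment and the haltere, held a single optimal peak (FBgn0003944, chr3R:16656623-16734426, minus strand). Ubx peak 1 (chr3R:16704292-16704681, score 112) ranked 5933, 2323 and 1132 in replicates 1, 2 and 3, a mean log10 rank of 3.40 ± 0.36 (SD, n = 3). Replicate 1 was again outside its top list. In that replicate the highest-ranked peak of Ubx, at rank 3764, had its summit 1562 bp away from that of peak 1. The optimal summit was in an intron, 29939 bp downstream of the Ubx TSS. Ubx held 12 pooled-list summits in 78804 bp, of which 3 were overlapped by no peak in any replicate list and 2 by peaks in all 3. Of all 30000 pooled-list peaks, 1012 were overlapped by none and 32.3% by peaks in all 3. Of genes within 20% of its window length, 50.8% held an optimal summit.

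**Figure D2:**
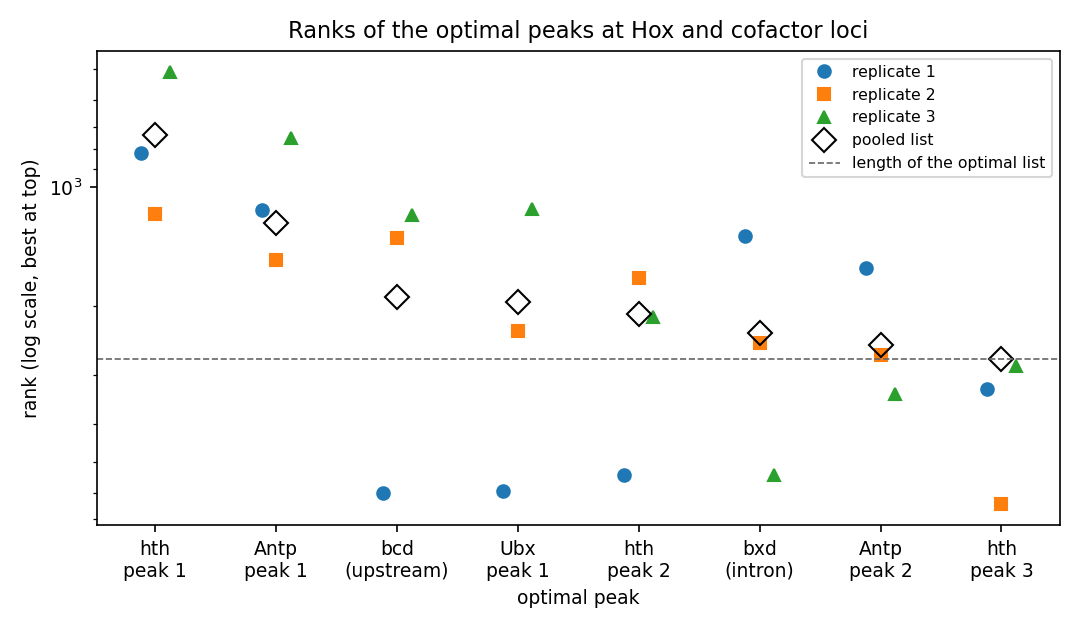
Rank of the 8 optimal peaks of the Hox complexes and hth in replicates 1, 2 and 3 and in the pooled list, on a log axis with the highest rank at the top. The dashed line is rank 2743, the length of the optimal list. hth peak 1 and Antp peak 1 lie above it in all 3 replicates, 5 peaks lie above it in 2 replicates, and hth peak 3 lies below it in every replicate.

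Of the 8 optimal peaks, 2 were in the top lists of all 3 replicates, 5 in exactly 2, and 1 in none. Over all optimal peaks 60.7% were in all 3. ANT-C peak 1 (score 114) ranked 6003, 1348 and 1173, and BX-C peak 1 (score 101) ranked 1331, 2495 and 5388. Replicate 1 had the lowest rank of ANT-C peak 1 and the highest of BX-C peak 1. All 8 intervals were 390 bp wide.

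The other 6 Hox genes held no optimal summit, and their best pooled-list peaks came at different distances from the list's end. The nearest was that of pb, the gene for the identity of the adult mouthparts (FBgn0051481, chr3R:6707800-6742063). It had pooled rank 2837 and score 90.1, 94 places below the optimal list, and matched peaks at ranks 8081, 1611 and 6287 in replicates 1, 2 and 3. Only replicate 2 had it in its top list. That summit lay 33029 bp from the pb TSS and 4950 bp from the TSS of the cuticle gene Ccp84Aa, which was named after its position was seen. Of genes within 20% of the window length of pb, 36.3% held an optimal summit.

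Abd-B, which specifies the posterior abdomen (FBgn0000015, chr3R:16927212-16972236), had its best pooled-list peak at rank 3896, in an intron 1883 bp downstream of a TSS. It matched peaks at ranks 4971, 28651 and 1788. Replicates 1 and 2 had it outside their top lists, with replicate 2 near the end of its list. Dfd, a gene of head segment identity (FBgn0000439, chr3R:6791836-6802428), had a single pooled-list summit, upstream of its TSS at -376 bp, with rank 3925. It ranked 6146, 3443 and 6749 and was outside the top list of all 3. The windows of pb, Dfd and Abd-B are shown, as the best peaks that came closest to the optimal list among genes without an optimal summit, at chr3R:6708984-6709084, chr3R:6791410-6791510 and chr3R:16958348-16958448 on the plus strand. Capitals mark the same motifs as above.
pb best pooled-list peak: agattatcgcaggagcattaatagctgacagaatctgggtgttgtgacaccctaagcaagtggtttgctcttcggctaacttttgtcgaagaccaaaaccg
Dfd best pooled-list peak: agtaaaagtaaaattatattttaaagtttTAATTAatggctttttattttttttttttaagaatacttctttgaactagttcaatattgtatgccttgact
Abd-B best pooled-list peak: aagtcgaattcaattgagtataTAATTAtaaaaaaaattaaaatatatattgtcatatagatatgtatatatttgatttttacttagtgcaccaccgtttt

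The Dfd and Abd-B windows each held TAATTA and had an A/T content of 81.2% and 80.2%. The pb window held none of the 3 marked motifs, at 54.5% A/T. For comparison, A/T content within 50 bp was 66.7% ± 8.68 (SD over 2743 summits) in the whole optimal list.

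The best peaks of the remaining Hox genes ranked lower. That of lab, which acts in the most anterior Hox domain (FBgn0002522, chr3R:6661427-6678590), was at pooled rank 6757 in an intron, matched at ranks 4568 and 4964 in replicates 1 and 2 and by no peak of replicate 3. That of abd-A, a gene of abdominal segment identity (FBgn0000014, chr3R:16807214-16830049), was at rank 6826, matched at ranks 3820 and 13922 in replicates 2 and 3 and by none in replicate 1. That of Scr, which acts in the labial and first thoracic segments (FBgn0003339, chr3R:6823120-6849981), was at rank 7975, matched at 9806 and 5411 in replicates 2 and 3 and by none in replicate 1. Each of these 3 peaks was thus missing from the list of a replicate. The shares of like-length genes with an optimal summit were 36.4% for lab, 38.4% for abd-A and 37.6% for Scr, and 33.0% and 40.5% for Dfd and Abd-B.

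The genes were ordered by the highest-ranked peak of each replicate list in their window, whichever peak that was. The order from highest was hth, Antp, Ubx, Abd-B, pb, Dfd, lab, abd-A, Scr and exd. The best ranks in replicates 1, 2 and 3 were 816, 1170 and 509 for hth and 1140, 1532 and 748 for Antp, whose best peak was the same region in every replicate, as it was for Dfd (6146, 3443 and 6749). They were 3764, 2323 and 1132 for Ubx, 4971, 4214 and 1788 for Abd-B, and 4934, 1611 and 6287 for pb. Replicate 3 gave the highest rank of the 3 for hth, Antp, Ubx and Abd-B, and replicate 2 for pb, Dfd, abd-A and exd. The ranks of lab were 4568, 4964 and 7359, those of abd-A 9419, 3820 and 6390, and those of Scr 5246, 9806 and 5411.

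Of the 9 neighbouring pairs in this order, 4 were ordered the same way in all 3 replicates: hth above Antp, Antp above Ubx, Ubx above Abd-B, and pb above Dfd. The differences in mean log10 rank were 0.14 ± 0.03, 0.29 ± 0.20, 0.19 ± 0.07 and 0.15 ± 0.16 (SD, n = 3). An exact sign-flip permutation test over the 3 replicates, two-sided, gave p = 0.25 for each, which is the smallest p that 3 replicates allow, and 0.562 after Benjamini-Hochberg adjustment over the 9 pairs. The pairs and their direction were set by the mean over these same 3 replicates, which favours agreement between replicates in advance. For the other 5 pairs at least 1 replicate went the other way, and the exact p ran from 0.5 to 1.0. Among Abd-B, pb, Dfd, lab, abd-A, Scr and exd the order therefore rests on differences that were mostly within the spread between replicates. Longer windows also hold more peaks, and the 3 leading genes have the longest windows.

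**Figure D3:**
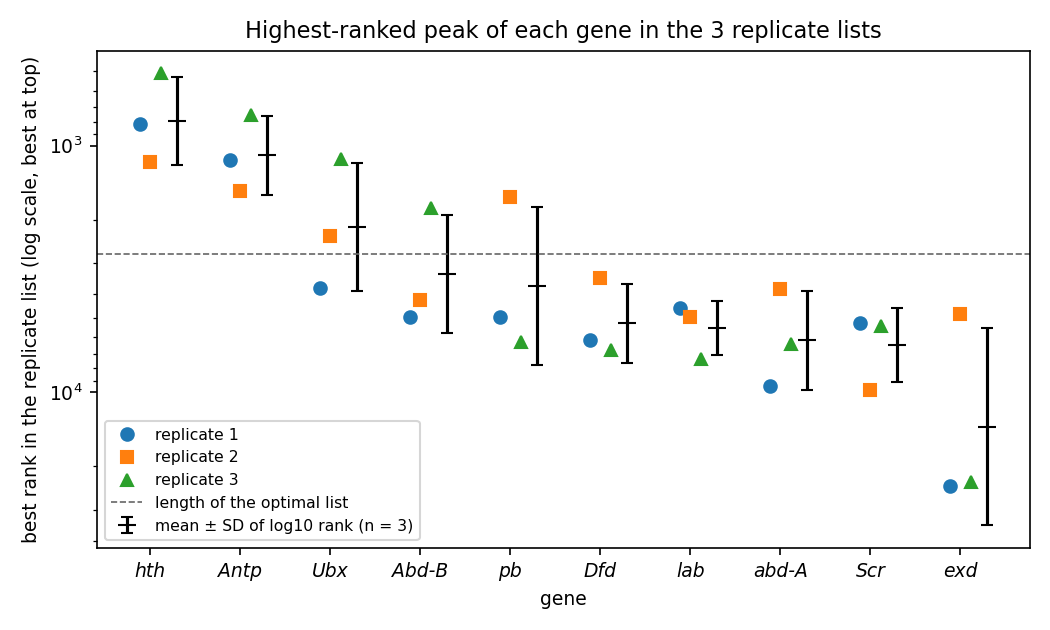
Rank of the highest-ranked peak of each gene in replicates 1, 2 and 3, on a log axis with the highest rank at the top. Black bars are the mean ± SD of log10 rank (n = 3), and the dashed line is rank 2743. The points of hth and Antp all lie above the line, and those of exd are spread from 4798 to 24087.

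The Hox genes of the complexes were compared with the cofactor genes per length of window, since the windows differ by up to 26.4 times. The 8 Hox genes (346 kb) held 2, 4 and 3 top-list summits in replicates 1, 2 and 3, or 0.579, 1.16 and 0.868 per 100 kb. The 2 cofactor genes (138 kb) held 1, 2 and 2, or 0.724, 1.45 and 1.45 per 100 kb, all of them in hth. The cofactor genes were higher in 3 of 3 replicates, with the lowest cofactor value inside the range of the Hox values. The mean difference, Hox minus cofactor, was -0.339 ± 0.221 summits per 100 kb (SD, n = 3), with an exact sign-flip permutation p of 0.25, two-sided, the smallest possible. Against hth alone it was -0.385 ± 0.234, also in 3 of 3 replicates and with the same exact p. Without replicate 3 these means were -0.218 and -0.260. With counts this low, 1 summit in a cofactor window changes the density of a replicate by 0.724 per 100 kb, more than the mean difference.

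The same comparison over whole replicate lists, added after the data had been seen, rests on more summits. Hox genes held 20.3, 25.5 and 22.6 summits per 100 kb in replicates 1, 2 and 3, and the cofactor genes 42.0, 26.8 and 30.4. Every cofactor value was above every Hox value, but the gap was wide in replicate 1 and small in replicate 2. The mean difference was -10.3 ± 10.4 per 100 kb (SD, n = 3), with an exact p of 0.25, and -10.3 ± 9.91 against hth alone. The whole lists hold background beside signal, so this describes where any called region falls.

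In the optimal list the Hox genes held 0.868 summits per 100 kb (exact Poisson 95% interval 0.179 to 2.54) and the cofactor genes 2.17 (0.448 to 6.35). All protein-coding windows, merged, held 2.52 (2.42 to 2.62) and the 6 main chromosome arms 2.05. The intervals of the Hox genes and of the cofactor genes both included the values for all windows and for the arms. In the pooled list the densities were 21.7 (17.1 to 27.2) for the Hox genes, 36.9 (27.5 to 48.6) for the cofactor genes and 24.0 for all windows. Of pooled-list summits, 4.00% were optimal in the Hox genes (95% Wilson interval 1.37 to 11.1) and 5.88% in the cofactor genes (2.02 to 15.9), with broad and overlapping intervals. Median ranks of the pooled-list summits were 17136 and 17098. Poisson and Wilson intervals alike leave out replicate error.

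**Figure D4:**
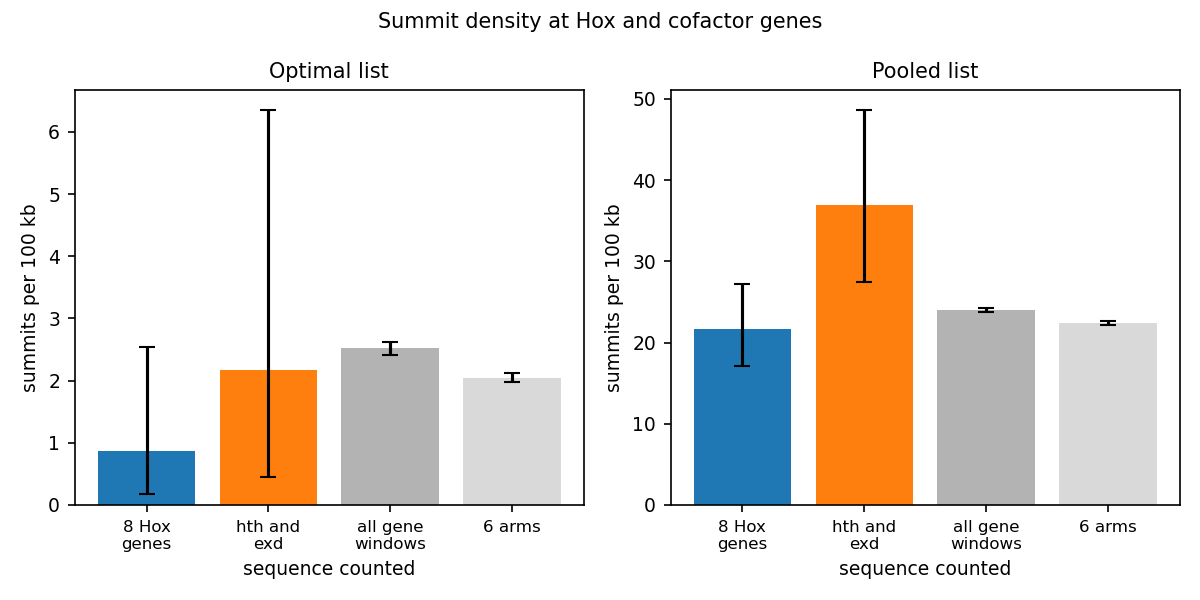
Summits per 100 kb in the optimal list (left) and the pooled list (right) for the windows of the 8 Hox genes, the windows of hth and exd, all protein-coding windows merged, and the 6 chromosome arms. Error bars are exact Poisson 95% intervals, which cover counting error only. The Hox genes have the lowest bar in both lists, at 0.868 and 21.7, and the intervals of the Hox and cofactor genes overlap on the left.

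Within the complexes, optimal summits were sparse and unevenly placed. The Antennapedia complex, from lab to Antp (chr3R:6661427-6999228, 338 kb), held 3, or 0.888 per 100 kb, and the bithorax complex, from Ubx to Abd-B (chr3R:16656623-16972236, 316 kb), held 2, or 0.634 per 100 kb. Top-list summits in replicates 1, 2 and 3 numbered 3, 4 and 3 in the Antennapedia complex and 1, 3 and 2 in the bithorax complex. The density of pooled-list summits was near that of the arms, with 82 (24.3 per 100 kb) and 68 (21.5 per 100 kb) against 22.4 over the arms. Of these, 3.66% (95% Wilson interval 1.25 to 10.2) and 2.94% (0.810 to 10.1) were optimal. The interval in the bithorax complex and that in the Antennapedia complex both reached above the 9.14% of all pooled-list peaks.

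The left part of the Antennapedia complex, with lab and pb, fell in a stretch of 336 kb without an optimal summit. It ran from an optimal summit outside the complex, at 3R:6424079, to ANT-C peak 1 at bcd. Most of it lay to the left of the complex, which starts at 3R:6661427. Only 4 of the 581 gaps between neighbouring optimal summits on 3R were at least that long, this one included. Dfd and Scr fell in the next gap, of 153 kb, which ended at Antp peak 1, and 47 of the 581 gaps were at least that long. In the bithorax complex, abd-A and Abd-B fell in a gap of 217 kb to the right of BX-C peak 1, and 22 of the 581 gaps were at least that long. The other gaps were 2.02 kb between the Antp peaks, 153 kb to the right of Antp peak 2, and 57.3 and 65.1 kb to the left and right of Ubx peak 1. Of the 581 gaps, 519, 48, 151 and 132 were at least as long as these. The median gap on 3R was 20.5 kb. Long gaps cover more sequence, so a gene falls in a long gap more often than the median implies. Gap lengths were not tested.

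Summits at promoters were counted by gene and by summit. None of the 10 genes had an optimal summit within 500 bp of an own TSS, against 15.1% of all protein-coding genes. A pooled-list summit lay there in 7 of the 10, above the 48.3% of all protein-coding genes. Neither share of all genes is matched for the number of TSSs per gene, which reaches 6 in Abd-B, and more TSSs give more chances to be counted. The 7 were Dfd, Scr, Antp, abd-A, Abd-B, exd and hth. The highest-ranked of these summits was that of Dfd (3925), followed by Antp (8400) and exd (9056). Those of Scr (17136), Abd-B (19582), abd-A (20312) and hth (21384) were all in the lower part of the pooled list. Of the 24 distinct TSSs of the 10 genes, 10 had a pooled-list summit within 500 bp. By class, 9 of the 126 pooled-list summits in the windows were within 500 bp of any protein-coding TSS (7.14%, 95% Wilson interval 3.80 to 13.0), against 23.6% of all pooled-list summits. For optimal summits it was 0 of 6 against 56.1%. The windows are long and hold only 24 TSSs, and neither the shares by gene nor those by summit were tested. Counted over all pooled-list summits, promoter ones included, 65 of 75 in the Hox genes and 45 of 51 in the cofactor genes lay in introns of the gene. The windows are gene bodies with 1 kb upstream. Neither their intron share nor the intron share of all pooled-list summits was computed, so these counts have no background beside them.

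The sequence around the 126 pooled-list summits was close to that of the list as a whole for most motifs searched on both strands within 50 bp. TAATTA was found at 11 (8.73%) against 8.11% of all 30000 pooled-list summits, TAATTG at 10 (7.94%) against 10.8%, and TGATNNAT at 8 (6.35%) against 7.24%. TGACAG, the site of Homothorax, was found at 7 (5.56%) against 3.93%, and GCCAT, the core of the site of the Polycomb recruiter Pleiohomeotic, at 25 (19.8%) against 18.2%. The motif of the GAGA factor, GAGAG, was found at 22 (17.5%, 95% Wilson interval 11.8 to 25.0) against 10.6% of all pooled-list and 8.31% of all optimal summits. By gene group GAGAG was at 14 of 75 summits in the Hox genes (18.7%) and 8 of 51 in the cofactor genes (15.7%). These shares were not tested, and neighbouring summits are not independent.

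Genes related to Hox function were counted by lists drawn up from known roles, beside the 19.7% of all protein-coding genes that held an optimal summit. The lists were drawn up with earlier results of these data known, so their shares are not independent of the data. That share is not matched for window length. Of the 5 other genes of the Antennapedia complex (bcd, zen, zen2, ftz and Ama), 1 held an optimal summit in its window, bcd. None of the 5 other TALE genes held any, nor did any of 13 regulators and partners of Hox genes, such as gap genes. Of 7 known embryonic targets of Hox proteins, 2 did (28.6%): fkh, the salivary gland gene activated by Scr, and dpp, the BMP ligand gene activated by Ubx in the visceral mesoderm. The fkh peak ranked 344, 2384 and 2056 in replicates 1, 2 and 3, and that of dpp 1418, 2716 and 1355. Both were in the top lists of all replicates. The shares of other complex genes and of Hox targets were near that of all genes, on few genes. Without the 1 kb upstream, bcd no longer held a summit, and 1 of the 7 targets did.

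Products of Polycomb and trithorax group genes keep Hox genes silent or active. Of 17 such genes, 10 held an optimal summit (58.8%), against the 19.7% of all protein-coding genes. This list too was drawn up with earlier results of these data known, and its share was not tested. With the 1 kb upstream left out of the window, 6 did, against 7.82% of all protein-coding genes. Neither share of all genes is matched for window length, and no like-length share was computed for this list. Its windows ran from 2599 bp (Sce) to 24546 bp (trx). Among genes within 20% of the window length of exd (5042 bp) the share was 23.8%, and of abd-A (23836 bp) 38.4%. Highest-ranked among the 10 were ph-p and Trl. The gene ph-p, for a subunit of the Polycomb repressive complex PRC1, had ranks 12, 8 and 7. Trl, which encodes the GAGA factor, had ranks 11, 16 and 15. The chromatin remodeller gene brm ranked 227, 114 and 148, and the histone methyltransferase gene trx 187, 149 and 106. These 4 genes ranked above every Hox and cofactor gene in all 3 replicates. The other 6 were ph-d, Psc, Su(z)2, E(z), Asx and mor, named after their values were seen. ph-p and ph-d are tandem copies of closely similar sequence, so reads may have been assigned to either.

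The protein-coding genes most like Antp in best pooled-list rank, among the 73 other genes of like window length with a pooled-list summit, were Flo2 (rank 1228), ed (1238) and cv-c (1241), against 1230 for Antp. For Ubx (rank 1959) they were toc (1917), CG13954 (1907) and NetB (1891), of 118. For hth (rank 734) they were luna (727), shep (722) and CG42750 (677), of 54. Counts of optimal summits differed even so, in both directions for Antp and hth. Each of these genes has a best rank inside the optimal list, so none could hold fewer than 1, the count in Ubx. Flo2 and ed held 3 and cv-c 1, against 2 in Antp, CG13954 held 2 and toc and NetB 1, against 1 in Ubx, and shep held 5 and luna and CG42750 1, against 3 in hth. The measure of likeness is a single peak rank per gene in 1 pooled list.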

How the data were processed

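Peak lists in dm6 were used. Per the text files deposited with them, peaks were called against a control alignment, for every replicate alone and for the 3 together, as input for the irreproducible discovery rate procedure, which gave the optimal list. An aligner and a peak caller, not given in the sources used here, produced these lists. Scores deposited by the authors were used to rank and describe peaks of a single list. Their −log10 q, also deposited, was read but supports no result. The summit is the interval start plus the deposited offset. Lists in dm3 were not used, and a control library was not analysed here.

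Genes came from Ensembl release 115 (BDGP 6.54) and bases from the RefSeq Release 6 genome. A replicate peak matched a pooled peak by at least 1 bp of overlap. Summits in several windows of one side were counted once in densities. Scripts ran in Python 3.11.15 with pandas 2.3.3, numpy 2.4.6 and scipy 1.17.1 and were tested on simulated lists. The unit of the sign-flip test is the replicate.

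The genes, lists and rules were chosen with earlier results of these data known. Genes named were the 10 genes, genes holding or nearest to an optimal summit in a window or complex, up to 4 genes with an optimal summit per list by best rank, slou, and the 3 genes most like each gene with an optimal summit, within 20% of its window length. Alternatives were other windows, stricter peak sets, list lengths, matching rules and distances, and leaving out each replicate.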

Additional observations from a re-analysis of the deposited data

How the results depend on the processing

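The differences in density kept their direction under every alternative run, while the order of genes by best rank did not. The count of 6 optimal summits in the 10 windows fell to 2 among the 1371 higher-scoring optimal peaks and to 2 among the 1664 matched in the top lists of all 3 replicates, which are smaller lists by construction. It ranged from 2 to 4 when only matches in the replicates other than 1 left out were kept. Antp and hth remained in each case, and Ubx was lost in all but the list without replicate 1. Under both stricter lists the share of pooled-list summits that were optimal was 1.33% in the Hox genes and 1.96% in the cofactor genes, and leaving out replicates gave 1.33% to 2.67% and 1.96% to 3.92%. Within 1000 bp of a TSS lay 14 of the pooled-list summits. With 20 kb added on each side, the bithorax complex held 4 optimal summits. With gene bodies alone, lists of other complex genes, Polycomb and trithorax genes and Hox targets had 0, 6 and 1 members with an optimal summit.

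The density difference between Hox and cofactor genes ran from -0.776 to -0.218 over the top-list alternatives, and that against hth from -0.672 to -0.260. The exact p could not fall below 0.25. Leaving out replicates kept hth and Antp at the head of the order and exd at its end. Without replicate 3, pb stood above Ubx and Abd-B. Without replicate 2, Scr stood above pb, and lab above Dfd. Without replicate 1, abd-A stood above lab. Motif counts within 100 bp were higher by construction. No paired analysis was possible because there is only 1 group, so no samples of different groups could be paired. The sign-flip tests compare genes within each replicate. Few summits per gene, unknown depth and long windows limit all counts, and the absence of an optimal peak says only that none passed the authors' threshold.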

Other observations

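Between the Hox genes, the complexes held further pooled-list peaks that matched a peak in all 3 replicate lists and lay just outside the optimal list. They were picked after their values were seen. A summit at 3R:16748763 in an intron of lncRNA:bxd ranked 2826 with a score of 90.3, and BX-C peak 1 lay in an intron of the same RNA gene. A summit at 3R:6881740 in an intron of lncRNA:CR44931, nearest to the pair-rule gene ftz, ranked 2914. An intergenic summit at 3R:16798852 ranked 3481. Another at 3R:16919270 in an intron of lncRNA:iab8, the noncoding RNA of the abdominal regulatory region, ranked 3560, and an intergenic summit at 3R:6816952 ranked 3874. A summit in the 5′ UTR of Ama, an immunoglobulin-family gene beside bcd, ranked 3957. In all, 36 pooled-list summits of the Antennapedia complex and 39 of the bithorax complex lay outside the Hox gene windows.

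Of the Polycomb group genes without an optimal summit, esc came nearest, with a best pooled-list rank of 2777. The Hox regulators nearest to the optimal list were cnc at 2808 and cad at 2828. These 3 genes were also picked after their ranks were seen.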
